A study of Homo sapiens with 8 samples.

Results

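PHOX2A, HAND2, GATA2, GATA3, ISL1, TBX2, TFAP2B and MEIS2 are transcription factors of the adrenergic (noradrenergic) state of neuroblastoma, and their poly(A) sites are described here. Each of the 8 genes, of 19389 protein-coding genes annotated, was taken as its GENCODE span plus 4 kb after its 3′ end, and every poly(A) peak overlapping this window by at least 1 bp was assigned to it. The windows held 91 of the 153624 peaks listed.

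The question of the study was how blocking CDK12 and CDK13, kinases of elongating RNA polymerase II, affects where transcripts end. Kelly cells (human neuroblastoma, MYCN-amplified) and Kelly E9R cells, which carry a homozygous mutation of the CDK12 cysteine bound by the covalent inhibitor THZ531, received DMSO or 400 nM THZ531 for 6 h according to the labels, in 4 groups of 2 libraries. The study's text gives a lower dose for these cells. Peaks were called once on the merged reads of all 8 libraries, without strand, so that THZ531 cannot be compared with DMSO, nor Kelly with Kelly E9R, no value has a replicate, and the depth of each library is unknown.

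Neuroblastoma arises from the sympathoadrenal lineage of the neural crest. In adrenergic tumor cells a small circuit of transcription factors binds the enhancers of its own genes and keeps the noradrenergic program active. A messenger RNA ends where its precursor is cleaved and a poly(A) tail is added, usually a short way after an AATAAA hexamer or a close variant, the polyadenylation signal (PAS). Genes with several signals in the last exon make tandem 3′ UTRs of different length, which changes the sites that microRNAs and RNA-binding proteins can reach, whereas a signal used inside an intron shortens the transcript and usually the protein. In 3′-end libraries primed with oligo(dT), the primer can also anneal to A-rich stretches inside a transcript.

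All 8 genes had a peak at an annotated transcript end, and all 8 had at least 2 tandem peaks in the 3′ UTR region. Of the 91 peaks, 1 in MEIS2 was removed because it lacked a PAS and was followed by a run of A, which left 90. Of these, 15 lay at an annotated transcript end (from 200 bp before to 600 bp after it), 7 elsewhere in a 3′ UTR, 3 in another exon, 62 in an intron and 3 farther after the gene end. MEIS2 alone held 47 of the 90 peaks and 42 of the 62 intronic ones.

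The sequences at the ends of the genes are shown first, since they are what the 3′-end peaks are read against. They are GRCh38 reference bases on the strand of the gene, 5′ to 3′, with the PAS in capitals. The first set gives the last bases before annotated transcript ends that lie in or beside a peak.
PHOX2A (chr11:72239077-72239106, reverse strand): atccaAATAAAacttaatttattgaagaca
GATA2 distal end (chr3:128479427-128479456, reverse strand): tgttaagaatAATAAAatactttttgtgaa
GATA2 proximal end (chr3:128480146-128480175, reverse strand): aaaaaatATTAAAaaaatgcataggcttaa
GATA3 proximal end (chr10:8074861-8074890, forward strand): gttgAATAAActagattacattcagttggc
GATA3 distal end (chr10:8075169-8075198, forward strand): taatAATAAAgtgaaaatattttaaaacta
TBX2 (chr17:61409437-61409466, forward strand): caagaaaacAATAAAacgctagaaagcgaa
TFAP2B (chr6:50847590-50847619, forward strand): AATAAAaagattgttgtgttttcatcttca
MEIS2 end at the middle peak (chr15:36891022-36891051, reverse strand): tAATAAAtatttcatttttgattttttgtt
MEIS2 distal end (chr15:36889204-36889233, reverse strand): tctgAATAAAattgcttatgttctccaaaa
The most distal annotated end carried AATAAA in the 50 bp before it in 7 of the 8 genes, against 64.5% of the 12500 protein-coding genes with a transcript end peak. The exception was HAND2, whose annotated end had none of the 12 PAS hexamers searched. Over all 18 annotated ends of the 8 genes, 9 had AATAAA, 2 had ATTAAA as the nearest form and 7 had no hexamer, 5 of the 7 in MEIS2.

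The second set gives bases at the 3′ ends of peaks. It was chosen to show the strongest peak of ISL1 and the peak at the HAND2 end, where the annotated end lacks a hexamer. The higher HAND2 peak before it is also shown, with peaks of GATA3 and TBX2 that cover no annotated end.
ISL1 strongest peak (chr5:51394720-51394749, forward strand): aaataAATAAAcacagtgatccagggtccc
HAND2 end peak (chr4:173526088-173526117, reverse strand): tcaaactatggggctttcatccAAGAAAaa
HAND2 proximal peak (chr4:173526505-173526534, reverse strand): ttaaaatattcagaAGTAAActaaattatc
GATA3 peak past the gene end (chr10:8075807-8075836, forward strand): AATAAAggtgtagagcattactgagatgca
TBX2 proximal peak (chr17:61408601-61408630, forward strand): AATAAAggagaaaagtgggctgcagcagcc
The proximal HAND2 peak is 443 bp wide, and only the 100 bp before the 3′ edge of a peak were searched. In this part neither AATAAA nor ATTAAA was found on the gene's strand at either HAND2 peak, and only rarer variants occurred. Such hexamers were also frequent on the other strand: 43 of the 90 peaks (47.8%) had at least 1 of the 12 hexamers in the mirror-image window on the other strand, against 57 of 90 (63.3%, 95% Wilson interval 53 to 72.6) on the gene's own strand. Over all genes with a transcript end peak these shares were 43.3% and 61.4%.

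The height of a peak is given as its pileup, the number of 100-bp extended reads over the summit in all libraries together, with an exact 95% Poisson interval that covers counting error only. It was recovered as a whole number from the deposited fold enrichment and p-value. The strongest transcript end peak had a pileup of 121 in PHOX2A (100 to 145), 59 in GATA2 (44.9 to 76.1), 56 in GATA3 (42.3 to 72.7), 50 in ISL1 (37.1 to 65.9), 48 in HAND2 (35.4 to 63.6), 37 in MEIS2 (26.1 to 51), 31 in TFAP2B (21.1 to 44) and 28 in TBX2 (18.6 to 40.5). Only PHOX2A stood apart from its neighbor in this order. The intervals of GATA2, GATA3, ISL1, HAND2 and MEIS2 overlapped each other, as did those of MEIS2, TFAP2B and TBX2. The median of the 8 was 49, against a median of 22 (quartiles 14 and 31) over 12500 genes. A transcript end peak was present in 64.5% of all protein-coding genes, and in all 8 of these.

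The order changed when peaks were ranked by the deposited fold enrichment, which is the pileup plus 1 divided by the local background plus 1. MEIS2 came first at 15.2-fold, followed by PHOX2A at 14.6, ISL1 at 14.2, GATA2 at 11, GATA3 at 10.5, TFAP2B at 8.56, TBX2 at 7.34 and HAND2 at 5.06. The local background at these peaks ranged from 1.5 reads per 100 bp in MEIS2 to 8.69 in HAND2, and the median over the transcript end peaks of all genes was 1.04. HAND2 thus had a pileup near that of ISL1 over a background several times higher, 8.69 against 2.58.

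**Figure D1:**
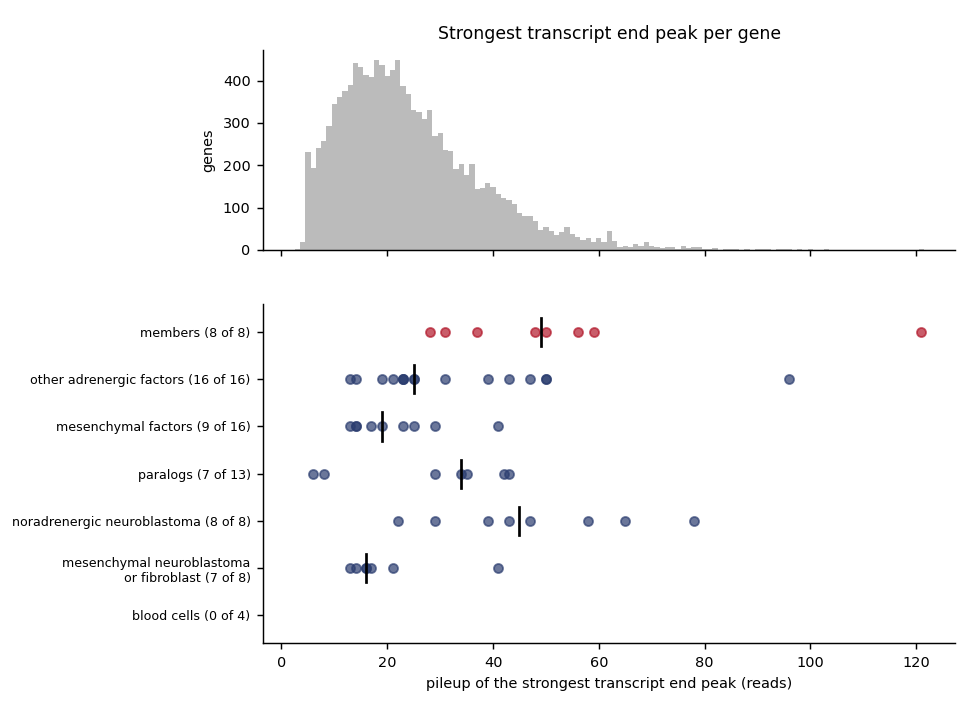
Top, number of protein-coding genes by the pileup of their strongest transcript end peak (12500 genes with a peak). Bottom, the same pileup (x axis, reads) for each gene of the lists named at the left, with the number of listed genes that have such a peak; black bars are medians. The 8 factors lie between 28 and 121 with a median of 49, the noradrenergic markers have a median of 45, and the blood markers have no peak.

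The cell type was checked against markers. All 8 noradrenergic neuroblastoma markers had a transcript end peak, with a median pileup of 45 and a range from 22 to 78. Chromogranin A (CHGA), of neurosecretory granules, reached 78 and DBH, the enzyme that makes noradrenaline, reached 58. None of the 4 blood markers had a peak. Of the 8 mesenchymal or fibroblast markers, 7 had one, with a lower median of 16 (13 to 41), and YAP1 had none. Among 16 regulators linked to the mesenchymal state, 9 had a transcript end peak (median 19, highest TWIST1 at 41), against 64.5% of all protein-coding genes. The other 7 had none, among them RUNX1 and MEOX1. All 16 other adrenergic factors had a transcript end peak, with a median of 25 against 22 over all genes with such a peak. The highest were in MYCN (96), KLF7 (50) and TCF3 (50). In pooled material, fewer cells with a transcript and less transcript per cell cannot be told apart.

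Paralogs of the 8 factors were measured in the same way. Of 13, 7 had a transcript end peak, against 64.5% of all protein-coding genes. ISL2, GATA1, TFAP2A, TFAP2C, TFAP2D and TFAP2E had none. TFAP2E had 1 intronic peak and the other 5 of these had no peak at all. In the GATA family, GATA5 and GATA6 reached pileups of 6 (2.2 to 13.1) and 8 (3.45 to 15.8), below the intervals of GATA2 and GATA3. In the HAND, TBX and MEIS families the intervals of the paralogs overlapped that of the listed gene: HAND1 had 34 (23.5 to 47.5) beside 48 for HAND2, TBX3 had 42 (30.3 to 56.8) beside 28 for TBX2, and MEIS1 and MEIS3 had 29 (19.4 to 41.6) and 35 (24.4 to 48.7) beside 37 for MEIS2.

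PHOX2A, a paired-like homeodomain factor that activates noradrenergic enzyme genes, lies on chr11:72239077-72244176 on the reverse strand and converges on INPPL1, which encodes an inositol phosphatase. The annotated ends of both genes overlap by 71 bp. The peak with pileup 121 (chr11:72238839-72239206) covers both ends, and it was the highest value of all 12500 genes. INPPL1 has its own AATAAA 28 bases before its end.
INPPL1 (chr11:72239118-72239147, forward strand): tcAATAAAttacaagtttttcaaagaaaaa
Since the list has no strand, the share of this peak that belongs to PHOX2A cannot be told apart from that of INPPL1. Both later peaks of PHOX2A, 900 and 1281 bp past its end by their 3′ edge with pileups of 44 and 61, lie in exons of INPPL1. Without peaks that lie in a gene on the opposite strand, PHOX2A kept no transcript end peak and no tandem peak. Its intron 1 held 2 more peaks, with pileups of 28 and 33 and no PAS at either.

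With reads extended to 100 bp, a pileup above 100 on 1 strand needs more than 1 read at some start position. The highest pileup in the list was 200, none was above it, and 16 of the 153624 peaks exceeded 100. On the numbered chromosomes, X and Y there were 9 of them, and all 9 had annotated genes on both strands within 600 bp, as did 11% of all peaks. How duplicate reads were handled is not given in the sources used here. If 1 read was kept per position and strand, the pileup counts distinct start positions rather than reads, and the heights of strong sites are compressed.

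HAND2, a basic helix-loop-helix factor of sympathetic neurons, lies on chr4:173526091-173530229 on the reverse strand. Its proximal 3′ UTR peak, which ended 414 bp before the gene end, had a pileup of 70 (54.6 to 88.4), and the peak at the annotated end had 48 (35.4 to 63.6). The peak at the annotated end was followed by A-rich sequence, and its only hexamer was AAGAAA, 8 bases before its 3′ edge. A site past the gene (chr4:173524275-173524428) lay 1816 bp after the end with a pileup of 62 (47.5 to 79.5), and a weaker one 3724 bp past it had 27 (17.8 to 39.3). Neither downstream peak had a PAS on the strand of HAND2, while both had one on the other strand (AAGAAA and AATAAA). The proximal peak and the peak at the annotated end each had ATTAAA on the other strand. The peak at the annotated end also had A-rich sequence there. Since the list has no strand, these peaks cannot be assigned to a strand either. Counted over all GENCODE transcripts, including those outside the basic set, the nearest annotated HAND2 end was 694 bp before the 3′ edge of the first of these sites. That peak then counted as a transcript end peak, and the strongest transcript end pileup of HAND2 was 62 instead of 48. HAND2 was the only gene of the 8 with no intronic peak.

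**Figure D2:**
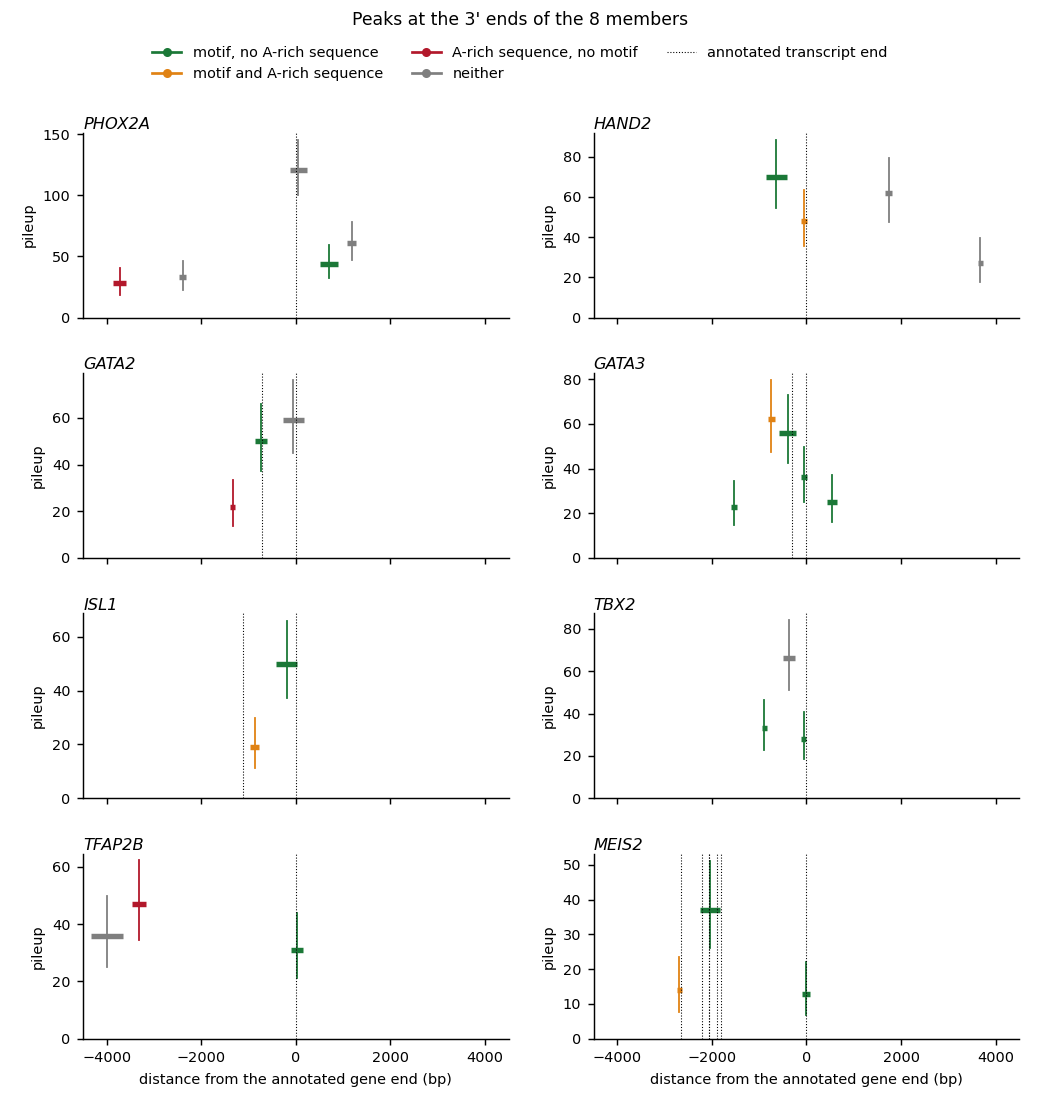
Peaks around the annotated gene end (x axis, bp from the end in the direction of transcription) in each of the 8 genes; the y axis is the pileup in reads. Thick bars span the peak, thin bars are exact 95% Poisson intervals, colors give the sequence class on the gene's strand, and dotted lines are annotated transcript ends. GATA3 has 4 tandem peaks, and HAND2 and PHOX2A have peaks past the gene end. TBX2 is highest at a wide peak with no PAS in the 100 bp before its 3′ edge, the only part searched.

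GATA2 and GATA3 are zinc finger factors, both expressed in developing sympathetic neurons. GATA2 (chr3:128479427-128493201, reverse strand) had 3 tandem peaks, ending 1285 and 616 bp before and 170 bp after the gene end, with pileups of 22 (13.8 to 33.3), 50 (37.1 to 65.9) and 59 (44.9 to 76.1). The middle and the distal peak each covered an annotated end and did not differ beyond counting error. The most proximal peak had no PAS and was followed by A-rich sequence.

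GATA3 (chr10:8054688-8075198, forward strand) had 4 tandem peaks, a number reached by 14.8% of genes with a transcript end peak. From proximal to distal their pileups were 62 (47.5 to 79.5), 56 (42.3 to 72.7), 36 (25.2 to 49.8) and 25 (16.2 to 36.9). The first and the last of the 4 had intervals that did not overlap, and the first was followed by A-rich sequence. The fourth peak (chr10:8075638-8075836) ended 638 bp past the annotated end, with AATAAA starting 30 bases before the 3′ edge of the peak and no A-rich sequence after it. No GENCODE transcript of GATA3, in the basic set or outside it, ended in this peak. On the other strand the same peak had AAGAAA and A-rich sequence, and the list does not give its strand.

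ISL1 encodes a LIM homeodomain factor needed for sympathetic neurons (chr5:51383448-51394730, forward strand). It had a dominant peak at the distal end with a pileup of 50 (37.1 to 65.9) and a smaller one 778 bp before it with 19 (11.4 to 29.7). The intervals of both did not overlap, and the distal peak had 4 PAS hits, with AATAAA 25 bases before its 3′ edge. The smaller peak was followed by A-rich sequence.

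TBX2, a T-box factor that mostly acts as a repressor, lies on chr17:61399843-61409466 on the forward strand. Its highest peak was not at the annotated end. The peak ending 237 bp before the gene end had a pileup of 66 (51 to 84), against 28 (18.6 to 40.5) at the end and 33 (22.7 to 46.3) at the site 835 bp before it. The highest of the 3 had none of the 12 hexamers in the 100 bp before its 3′ edge, whereas both weaker peaks had AATAAA and no A-rich sequence. The highest peak is 259 bp wide, against 114 and 111 bp for the weaker ones, so less of it was searched. A TBX2 transcript outside the basic set ends inside the highest peak, 105 bp before its 3′ edge. The bases before that end were thus not searched. With all transcripts counted, the strongest transcript end pileup of TBX2 was 66 instead of 28.

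TFAP2B, the AP-2 beta factor of sympathetic precursors, has the longest 3′ UTR of the 8 (4230 bp, gene at chr6:50818871-50847619, forward strand). Its peaks lay near both ends of this UTR. The first peak began in the last 103 bp of coding sequence and ended 3659 bp before the gene end with a pileup of 36 (25.2 to 49.8). The second ended 3163 bp before the gene end with 47 (34.5 to 62.5), and the third lay at the gene end with 31 (21.1 to 44), all within counting error of each other. Neither of the proximal peaks, 674 and 300 bp wide, had a PAS in the 100 bp before its 3′ edge. The second was followed by A-rich sequence, while the distal peak covers the annotated end with AATAAA.

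MEIS2, a TALE homeodomain partner of other homeobox factors, is the longest gene by far (chr15:36889204-37101299, reverse strand, 212 kb, with the other 7 between 4.14 and 28.7 kb). It had 8 annotated ends and 3 tandem peaks. The middle peak, over the cluster of ends about 2 kb before the gene end, had a pileup of 37 (26.1 to 51), and the proximal and distal peaks had 14 (7.65 to 23.5) and 13 (6.92 to 22.2). The interval of the middle peak did not overlap the others. The proximal peak was followed by A-rich sequence.

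Over the 8 genes, 2 or more tandem peaks were present in all 8, against 60.7% of the genes with a transcript end peak. With at least 50% of a peak required inside the regions, PHOX2A had 1. A peak lying wholly past the gene end within 4 kb was present in PHOX2A, HAND2 and GATA3, against 33.1% of genes. These genes also had high transcript end pileups, and the part of depth in the number of tandem peaks was not tested.

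**Figure D3:**
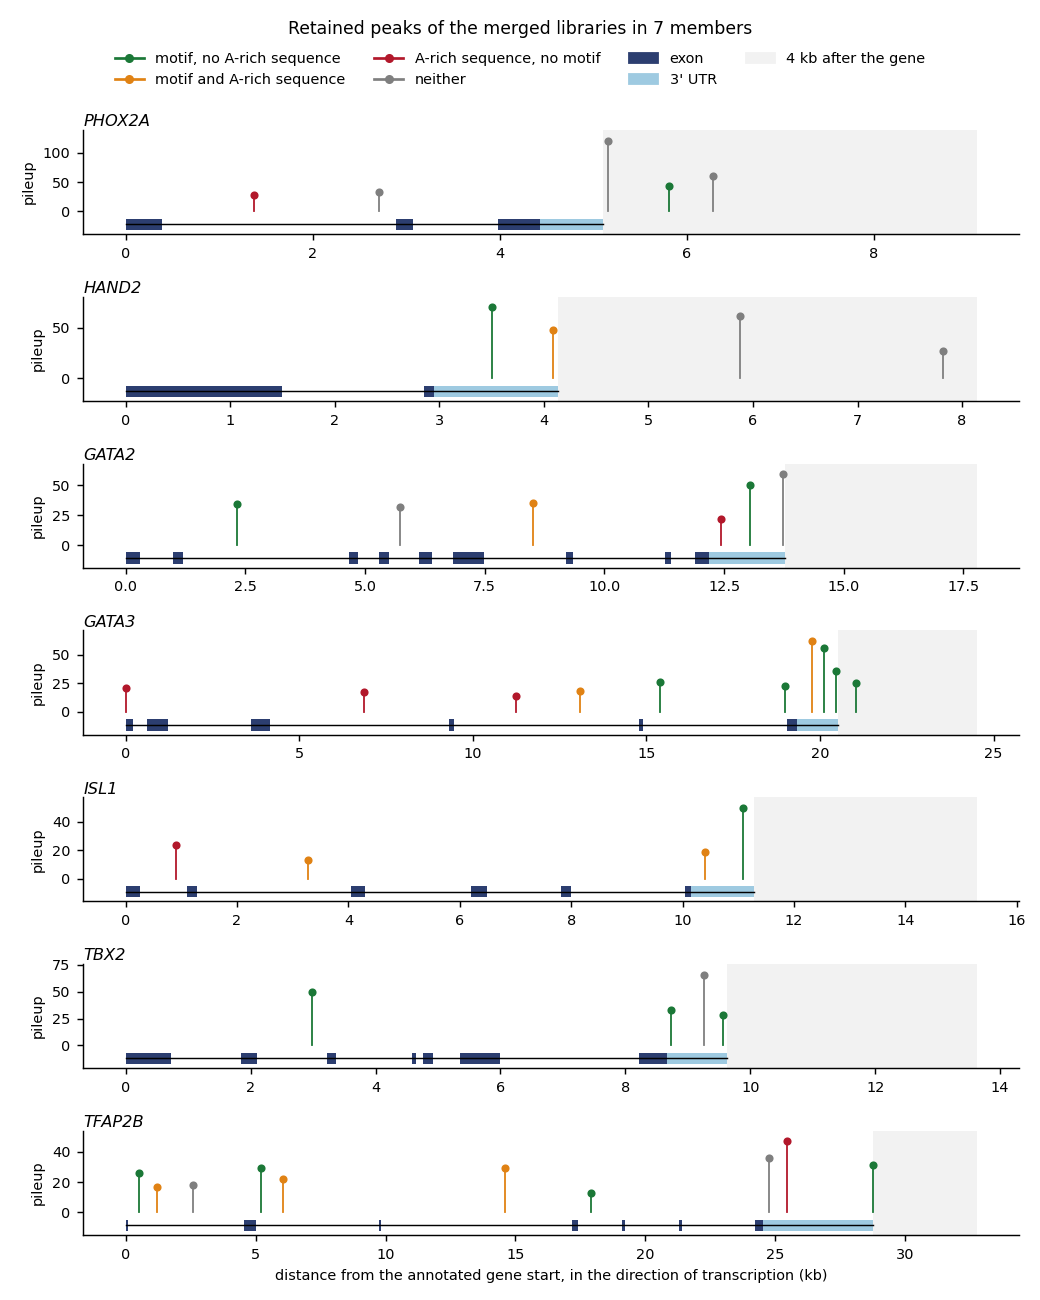
Retained peaks in the 7 shorter genes; x axis, kb from the annotated start in the direction of transcription; y axis, pileup in reads. Dark boxes are exons, light boxes 3′ UTRs, the gray area is the 4 kb after the gene, and colors give the sequence class on the gene's strand. TBX2 has an intronic peak of 50 in its second intron, and TFAP2B has 7 intronic peaks between 13 and 29.

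Intronic peaks were present in 7 of the 8 genes, against 76% of all genes with a transcript end peak and an intron. Because the count grows with gene length, each gene was placed among about 610 genes of like length. PHOX2A had 2 intronic peaks where the median of its length class was 0 (percentile 98.8). GATA2 had 3 against 1 (93.5), GATA3 had 5 against 2 (96), TFAP2B had 7 against 3 (97.4) and MEIS2 had 42 against 20 (98.8), so that 5 of the 8 lay above the 90th percentile. ISL1, with 2 against 1, was at percentile 85, TBX2, with 1 against 0, at 71 and HAND2, with 0 against 0, at 41.3.

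The same placement was also made among the stronger genes of the length class with a strongest transcript end pileup of at least 31, the upper quartile. TBX2, with 28, is itself below this level. The percentiles changed little: 98.6 for PHOX2A, 92.6 for GATA2, 95.7 for GATA3, 85.4 for ISL1, 71.7 for TBX2, 95.8 for TFAP2B and 96.3 for MEIS2, whose class median rose to 25. HAND2 was at 42.7. Some genes of the same length class had exactly the same intronic and tandem count as a factor: 5 for PHOX2A, 3 for GATA2, 1 each for GATA3 and TFAP2B and 0 for MEIS2, but 19 for TBX2, 36 for ISL1 and 144 for HAND2. Exact matches are fewer where the counts are high, so these numbers do not measure how unusual a gene is.

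**Figure D4:**
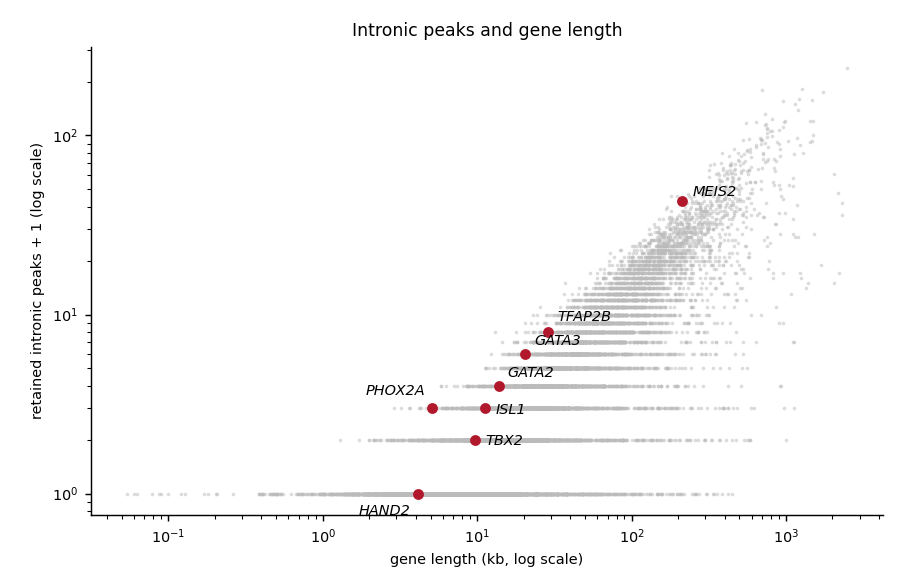
Retained intronic peaks plus 1 against gene length in kb, both on log scales, for protein-coding genes with a transcript end peak (gray) and the 8 factors (red). MEIS2 has 42 intronic peaks and TFAP2B 7, at the upper edge for their length, and HAND2 has none.

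The intronic peaks of the 7 shorter genes differed in sequence from those of MEIS2. Of 20 intronic peaks in these 7 genes, 10 (50%) were followed by A-rich sequence on the gene's strand (6 A in a row or 7 A in 10 bases within 50 bp), and 7 (35%) had a PAS and no A-rich sequence. Over all genes 78.1% of intronic peaks had A-rich sequence after them and 16.3% had a PAS without it. The 7 intronic peaks of the second kind are shown with the PAS in capitals, since they are the intronic sites that pass both sequence criteria on the gene's strand.
GATA2 intron 1 (chr3:128490798-128490827, reverse strand): ggAGTAAAtctgctctcaccaggcctggaa
GATA3 intron 5, first (chr10:8070100-8070129, forward strand): ggatcctctgTATAAAagacatggaaaaaa
GATA3 intron 5, second (chr10:8073703-8073732, forward strand): AGTAAAaaaaaaaaaaaaaaattgatcttt
TBX2 intron 2 (chr17:61402871-61402900, forward strand): AAGAAAtaagggtgagaaaagagcagagac
TFAP2B intron 1 (chr6:50819412-50819441, forward strand): AATAAAatttctgaaattgataacaaatgg
TFAP2B intron 2 (chr6:50824145-50824174, forward strand): gAATAAAggcgaatgcttttgtcctgcctc
TFAP2B intron 4 (chr6:50836793-50836822, forward strand): ctgtaacccagtttGATAAActctttttct
Both AATAAA sites are in TFAP2B, where the intron 2 site had a pileup of 29 (19.4 to 41.6) and the intron 1 site 26 (17 to 38.1). These are close to the 31 at the gene end. They are lower than the 47 (34.5 to 62.5) of the highest TFAP2B 3′ UTR peak, with overlapping intervals. Both GATA3 sites are followed by a run of A inside the peak, which the search after the peak does not count. The list has no strand, and on the opposite strand the TBX2 site and the TFAP2B intron 2 site had A-rich sequence as well as a hexamer (ATTAAA and CATAAA), while the TFAP2B sites in introns 1 and 4 had AATAAA.

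TBX2 had the strongest intronic peak of the 8 genes. It lay in intron 2 (chr17:61402718-61402929) with a pileup of 50 (37.1 to 65.9) and a fold enrichment of 15.5, above the 28 at its transcript end in the basic annotation but below the 66 of its 3′ UTR peak, which is a transcript end when all GENCODE transcripts are counted. Its only PAS hits were AAGAAA, the nearest 59 bases before the 3′ edge of the peak. In the other 6 genes with intronic peaks the highest intronic pileup was below that of the strongest transcript end peak. It was 35 against 59 in GATA2, 26 against 56 in GATA3 and 24 against 50 in ISL1. In TFAP2B it was 29 against 31 and in MEIS2 24 against 37. The intervals overlapped in GATA2, TFAP2B and MEIS2. In PHOX2A it was 33 against 121, a peak that also covers the end of INPPL1. The intron 1 peak of GATA2 also lies in GATA2-AS1, an antisense gene, and cannot be assigned to either strand.

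In MEIS2, 40 of 42 intronic peaks (95.2%, 84.2 to 98.7) were followed by A-rich sequence on the gene's strand, against 4 (9.52%) on the opposite strand of the same peaks, and 0 of 42 had a PAS without A-rich sequence. All 40 lay in introns 8, 9 and 10, which measure 46.8, 86.4 and 53.6 kb, make up 88.1% of the gene and held 11, 19 and 10 peaks. This is 2.35, 2.2 and 1.86 peaks per 10 kb. Their pileups were low: the 42 ranged from 5 to 24 with a median of 11, below the 37 of the strongest transcript end peak. MEIS2 was also the most AT-rich of the 8, with 38.3% G+C (percentile 13.3 among genes with a transcript end peak) and 13 AATAAA per 10 kb (percentile 93), against a median of 45.3% and 7.14. The 7 other genes ranged from 44.1% G+C in TFAP2B to 61.3% in TBX2.

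**Figure D5:**
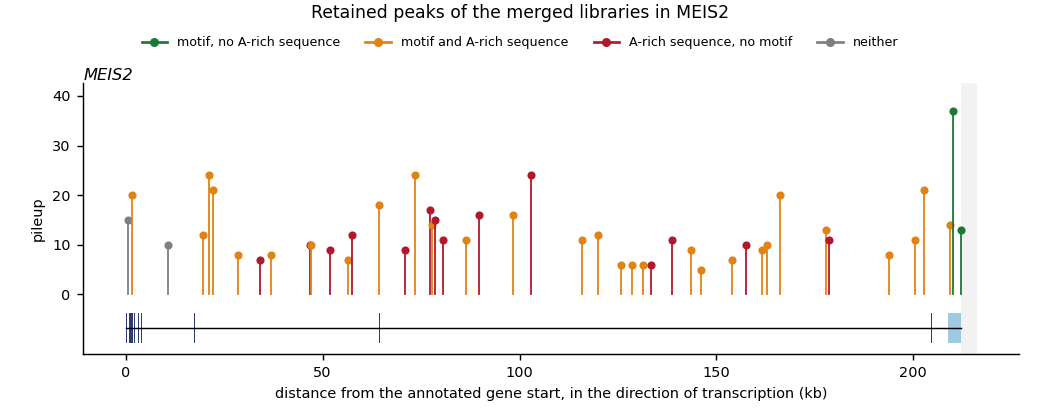
Retained peaks along MEIS2; x axis, kb from the annotated start in the direction of transcription; y axis, pileup in reads; exons are dark and the 3′ UTR light. The intronic peaks lie between 5 and 24 and all those in introns 8 to 10 carry A-rich sequence (orange or red), while the strongest peak, 37, is in the 3′ UTR and has a PAS without it (green).

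The A-rich sequences are shown by the 30 bases that follow 3 intronic peaks, with every A in capitals. The first is the peak that was removed.
MEIS2 intron 7, removed (chr15:37092703-37092732, reverse strand): AAAAAAAAAAAAAAAAAAAAAAAAAAAAAA
ISL1 intron 1 (chr5:51384409-51384438, forward strand): AAAAAAAAAAgAAAgAAAgAAAgAAAgAAA
PHOX2A intron 1 (chr11:72242637-72242666, reverse strand): AAgAAgAAgAAgAAgAAgAAgActgggccc
Over the 8 genes, 50 of 62 intronic peaks (80.6%) had A-rich sequence on the gene's strand and 9 (14.5%) on the opposite strand, against 78.1% and 19.3% over all genes. Peaks with a PAS and no A-rich sequence were 19 of 90 (21.1%, 14 to 30.6), against 28.7% over all genes, and 17 of 43 (39.5%) when MEIS2 was left out. Whether internal priming gave the A-rich peaks was not tested.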

How the data were processed

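Poly(A) 3′-sequencing (QuantSeq 3′ REV) libraries were mapped to GRCh38 with STAR 2.5.1b, and the authors called peaks with MACS2 2.1.1 on the merged reads, extended to 100 bp. The deposited list gives a fold enrichment (a ratio to the local background), −log10 p and −log10 q, and a score, all pooled over the libraries as the authors deposited them. No column (0) belongs to a single sample, and no strand is given. The pileup was recovered from fold and p-value with MACS2's formulas (whole within 0.001 of the −log10 p for 100% of peaks, a single solution for 99.3%) and was tested on simulated data.

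Peaks were annotated with GENCODE 44 basic transcripts. The study's 12 PAS hexamers were searched in the 100 bp before the 3′ edge of a peak, and A-rich sequence in the 50 bp after it, on the gene's strand. Peaks with 25 A (at most 3 mismatches) and no PAS were removed, as in the study. Wide peaks can end well past the cleavage site, so the search can miss a PAS inside them. Positions of a PAS count from 1 at the last base before the edge or end to the first base of the hexamer. Length classes are 20 bins of genes with a transcript end peak and an intron. All 8 members are named; from other lists, up to 3 genes by the highest pileup, and those with none. The members and lists were chosen with earlier results of these data known. No test was run. Some genes of the other lists and 1 sequence are not reported here. Python 3.11.15, pandas 2.3.3, scipy 1.17.1 and pysam 0.24.0 were used.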

Additional observations from a re-analysis of the deposited data

How the results depend on the processing

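No paired analysis was possible because the list holds no values per library, and for the same reason no replicate could be left out. Of 83 recomputed summary values, 74 stayed within 1.5-fold of a count or within the counting interval of a share or median. The other 9 were these. The number of peaks past the gene end was 5 with the 4 kb window, 2 with 1 kb and 11 with 10 kb. With AATAAA and ATTAAA alone, the share of peaks with a PAS fell from 63.3% to 30.3%, and the share with a PAS and no A-rich sequence from 21.1% to 13.5%. A PAS window of 50 bp gave 45.6% with a PAS. Counting only the 25 A stretch as A-rich gave 62.2% with a PAS and no A-rich sequence. Leaving out MEIS2 gave 43 peaks, 20 intronic peaks and 39.5% with a PAS and no A-rich sequence. For single genes, all GENCODE transcripts raised the intronic peaks of GATA3 from 5 to 9. They also raised the strongest transcript end pileup of HAND2 from 48 to 62, and the median over all members from 49 to 60.5. Leaving out PHOX2A, and the length classes limited to strong genes, were chosen after seeing the data. Without PHOX2A the median strongest pileup was 48.

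Depth limits the list: the median pileup was 9, a pileup of 14 has an interval of 7.65 to 23.5, and differences between neighboring sites of such height were not detectable. Intervals cover counting error only, and treated and untreated cells contribute to every value in unknown shares.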

Other observations

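Among the other adrenergic factors, intronic peaks were also concentrated in a few genes, which were named after their values were seen. DACH1 (429 kb) and ZNF536 (489 kb) each held 43, and EBF1 (404 kb), which helps to specify neurons and B cells, held 39. These are the longest genes of that list, and the count grows with gene length. They were not placed among genes of like length. The paralog MEIS1 (139 kb) held 22, beside 42 in MEIS2 (212 kb). SOX11, an SRY-related factor of embryonic neurons, had 6 tandem 3′ UTR peaks, more than the 4 of GATA3.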
